A study of Mus musculus with 127 samples.

Results

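RNA of the synaptic fraction was compared with RNA of the nuclear fraction from the same adult cortex in germline wild-type (WT) mice. The libraries were those labelled WT whose animal number carried both a synaptic and a nuclear count column, which gave 20 libraries from 10 animals of the 127 samples in the series. The groups were synaptic fractions from 5 females (1F, 2F, 3F, 4F and 5F) and 5 males (12M, 13M, 24M, 25M and 29M), and nuclear fractions labelled with the same 10 animals. All were labelled as WT littermates of Chd8+/5bpdel mice, so by label no library compared here carries that allele. The cortex was taken on or around postnatal day 60. Per the labels' protocols, frozen cortex was homogenised in a synaptosome reagent to give the synaptic fraction, and the nuclear fraction came from the flowthrough, which the protocol calls total, with a nuclear extraction kit; poly(A) RNA was sequenced as paired-end reads of 150 bases. Both fractions hold material of every cortical cell type, since no cell was sorted, and a synaptosome preparation is an enrichment, not a pure compartment. A second group of WT mice, 4 Camk2a-CRE Chd8+/+ animals with both fractions, came from a conditional line in which Cre is driven by the Camk2a promoter and both Chd8 alleles were wild type.

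Synaptosomes are pinched-off nerve terminals, often with a piece of the postsynaptic membrane attached, which reseal when brain tissue is homogenised and carry mitochondria, ribosomes and locally kept mRNA. Neurons transport some mRNAs into dendrites and axons and translate them near synapses. Many long noncoding RNAs, in contrast, stay in the nucleus, where they sit in nuclear bodies or at the locus that makes them.

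The libraries held 26.6 M to 45.96 M (mega) counts in the synaptic and 25.7 M to 50.7 M in the nuclear fraction, and the total per library did not differ by more than its spread (mean difference 0.139 M, SD 10.4 M, n = 10 animals, exact sign-flip permutation test, two-sided p = 0.977). The synaptic libraries of animals 12M and 13M stood apart from the other 8. Across 18879 genes their log2 CPM (counts scaled to the size of the library) correlated less with the synaptic libraries of those 8 animals (mean Pearson r over genes, 0.922 and 0.915) than with their nuclear libraries (0.972 and 0.969), whereas each of the other 8 synaptic libraries correlated more with its own fraction (0.982 to 0.989) than with the nuclear one (0.913 to 0.934). Genes are not independent replicates, and these values are descriptive. The 2 libraries of 13M also carry different batch labels. Animals 1F, 2F and 3F share 1 batch label and 4F and 5F another, while 24M, 25M and 29M carry a label each. The last 3 were pooled here by the first 2 digits of their labels, with neighbouring values merged, and likewise 12M and 13M with 4F and 5F. The labels within such a pool therefore do not all begin alike. In animal 29M the nuclear library held 492 CPM of Xist, the RNA that coats the inactive X chromosome of females, and none of the Y-linked Ddx3y, while its synaptic library held 3.38 CPM of Xist and 44.9 CPM of Ddx3y. The libraries labelled 29M therefore did not carry the markers of 1 sex, against their shared label. Their WT genotype is known only from that label. Results are given for all 10 pairs and, where it matters, without 12M and 13M.

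**Figure D1:**
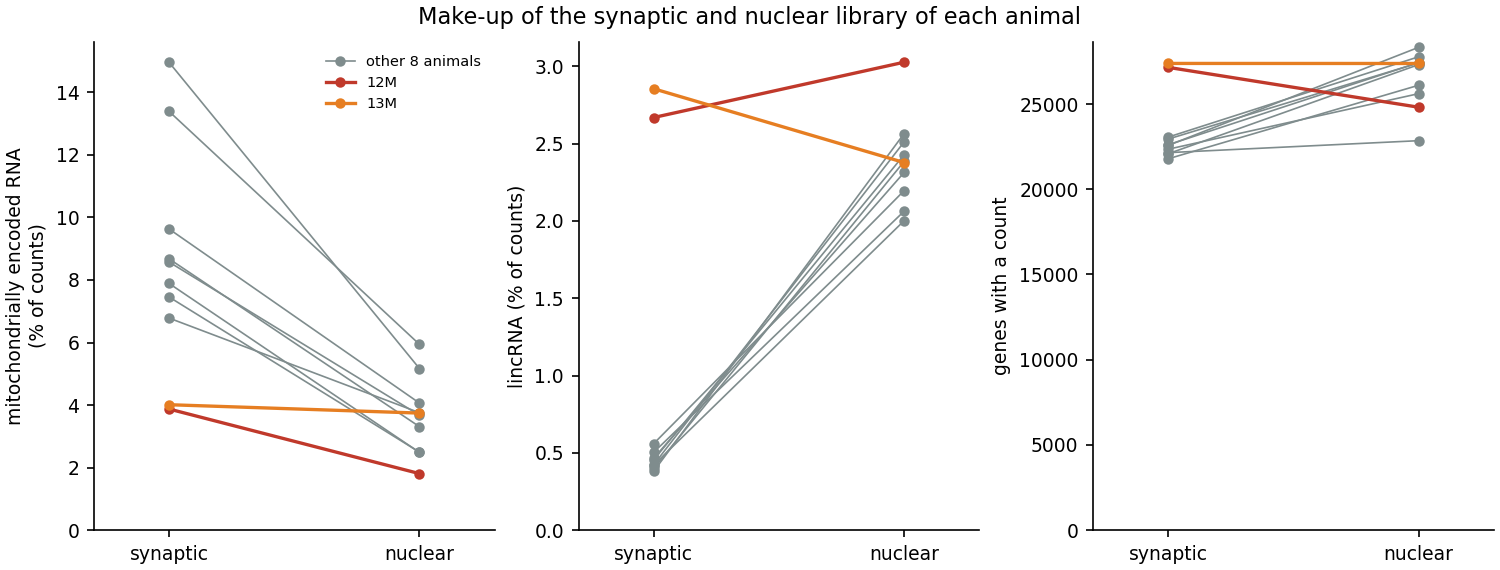
Share of counts from mitochondrially encoded genes, share from lincRNA genes, and number of genes with a count (y axes, from 0) in the synaptic and nuclear library of each animal, joined by a line. Animals 12M and 13M are coloured; their synaptic libraries sit at 3.87% and 4.01% mitochondrially encoded counts, below the 6.78 to 14.96% of the other 8 synaptic libraries.

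The synaptic fraction held more mitochondrially encoded RNA and fewer kinds of RNA than the nuclear fraction. Mitochondrially encoded genes took 8.52 ± 3.54% of counts in synaptic libraries and 3.64 ± 1.24% in nuclear libraries (SD, n = 10 animals each), with the synaptic share higher in 10 of 10 animals (exact sign-flip permutation test, two-sided p = 0.00195, the smallest that 10 pairs allow). Without 12M and 13M the mean difference was 5.81 ± 2.01 percentage points (SD, n = 8, exact p = 0.00781, again the smallest possible). Genes with a count numbered 21788 to 27382 in synaptic and 22850 to 28327 in nuclear libraries, with fewer in the synaptic library of 8 of 10 animals (exact p = 0.0117). The exceptions were 12M and 13M, whose synaptic libraries had 27151 and 27382. Genes annotated as lincRNA took 0.381 to 0.560% of counts in the 8 other synaptic libraries, 2.67% and 2.85% in those of 12M and 13M, and 2.00 to 3.03% in the nuclear libraries.

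Of 18879 genes tested, 5811 (30.8%) were higher and 6630 (35.1%) lower in the synaptic than in the nuclear fraction at an adjusted p under 0.05 (edgeR quasi-likelihood test, animal as block), together 65.9%. With a change of at least 2-fold required as well, 1219 genes (6.46%) were higher and 4179 (22.1%) lower. Without 12M and 13M the counts were 6460 (35%) and 7380 (40%) of 18442 genes, and 2022 (11%) and 4865 (26.4%) with the 2-fold rule; 5644 of the genes called higher and 6274 of those called lower over 10 pairs were called in both fits. Without 29M the counts were 5634 and 6341. Of the 12441 genes called over 10 pairs, 99.5% had the sign of the fit in animal 1F and 99.2% in 24M, but only 72.4% in 12M and 55.4% in 13M. These directions are relative to TMM scaling, which sets the bulk of genes to no change. Scaling to the total count alone moved the median log2 fold change of all genes by -0.50, to -0.56 from -0.06, and gave 1833 higher (9.71%) and 10307 lower genes (54.6%), together 64.3%. The higher share of all calls was 46.7% with TMM scaling and 15.1% with total-count scaling. The libraries hold no spike-in, so changes are reported relative to the median gene. Of the 32 gene lists described below, 3 had a median that changed sign with total-count scaling (mitochondrial ribosomal protein genes, immediate early genes and oligodendrocyte precursor markers). None changed side of the median gene, but scaling moves all genes by nearly the same amount, so this could hardly come out otherwise. List counts stand beside 30.8% higher and 35.1% lower of all genes, and with total-count scaling beside 9.71% and 54.6%.

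**Figure D2:**
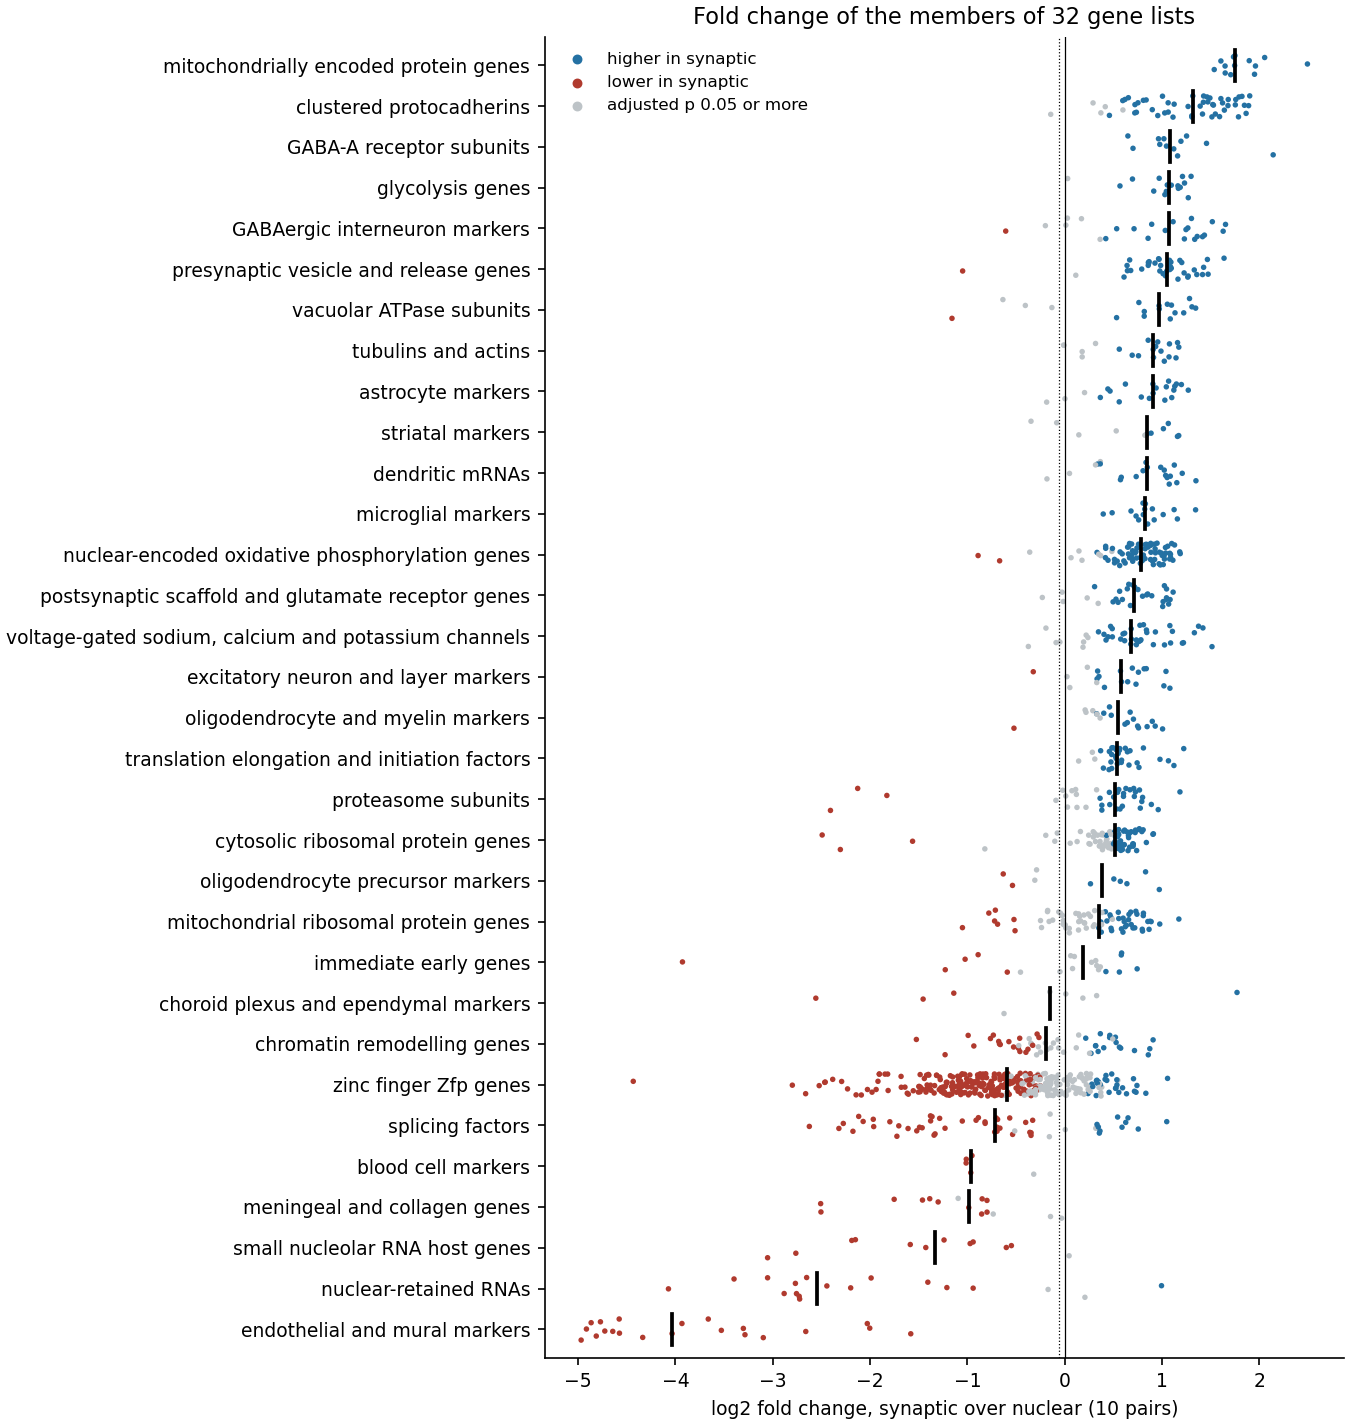
Log2 fold change of synaptic over nuclear (x axis, 10 pairs) for every tested member of 32 gene lists, 1 point per gene, with the list median as a black bar; the dotted line is the median of all genes. Medians run from -4.03 for endothelial and mural markers to 1.75 for mitochondrially encoded genes.

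The noncoding RNAs known to stay in the nucleus were mostly lower in the synaptic fraction. Of 18 such RNAs tested, 15 were lower and 1 was higher, with a median log2 fold change of -2.55 beside -0.06 over all genes. Meg3, a maternally expressed RNA of the imprinted Dlk1-Dio3 region, had a lowest, median and highest level of 539, 1043 and 15999 CPM in synaptic libraries and 7544, 9712 and 10405 CPM in nuclear libraries (log2 fold change -2.65, SE 0.54, adjusted p = 0.000936). The 8 synaptic libraries other than 12M and 13M reached at most 2102 CPM, below every nuclear library, while 12M and 13M, at 15482 and 15999 CPM, exceeded every nuclear library. Without these animals the log2 fold change of Meg3 was -3.30 (SE 0.22).

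Malat1, an abundant RNA of nuclear speckles, had 68.8, 154 and 1130 CPM (lowest, median, highest) in synaptic libraries and 900, 1310 and 2124 CPM in nuclear libraries, with a lower synaptic value in 10 of 10 animals (log2 fold change -2.88, SE 0.38, adjusted p = 6.75e-05). Neat1, the scaffold of paraspeckles, had 7.11, 16.4 and 256 CPM in synaptic libraries and 179, 420 and 628.2 CPM in nuclear libraries (-4.07, SE 0.64). Its synaptic values of 12M and 13M are the ones that reach the nuclear range. Snhg11, a neuronal host gene of a small nucleolar RNA, had 311.6, 592 and 9693 CPM in synaptic libraries and 6468, 7551 and 9115 CPM in nuclear libraries (-3.05, SE 0.54). Miat, a long noncoding RNA of neuronal nuclei, showed the same layout, with 65.4 to 237 CPM in 8 synaptic libraries, 1904 and 1949 CPM in those of 12M and 13M, and 1200 to 1634 CPM in nuclear libraries.

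Ftx (-3.40, SE 0.53), Firre (-2.72, SE 0.53), Mirg (-2.76, SE 0.49), Kcnq1ot1 (-2.73, SE 0.56), Rmst (-2.44, SE 0.43) and Dleu2 (-2.20, SE 0.30) were lower by similar log2 fold changes. Airn (-1.41, SE 0.55), Rian (-1.21, SE 0.21) and Snhg14 (-0.94, SE 0.36) were lower by less. Other names went against the list: Peg13, an imprinted RNA, was higher in the synaptic fraction (128, 357 and 376 CPM against 102, 145 and 184 CPM in nuclear libraries; log2 fold change 1.00, SE 0.14), and Tug1 (-0.17, SE 0.11, adjusted p = 0.173) and Pvt1 (0.21, SE 0.15, adjusted p = 0.228) did not pass the test. Xist, silent in males, was compared within the 5 females, where it had 24.6 to 176 CPM in synaptic and 175 to 313.6 CPM in nuclear libraries (log2 fold change -1.76, SE 0.34, adjusted p = 0.000645 over all genes). In 5F it was not lower, at 176 CPM in the synaptic and 175 CPM in the nuclear library.

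**Figure D3:**
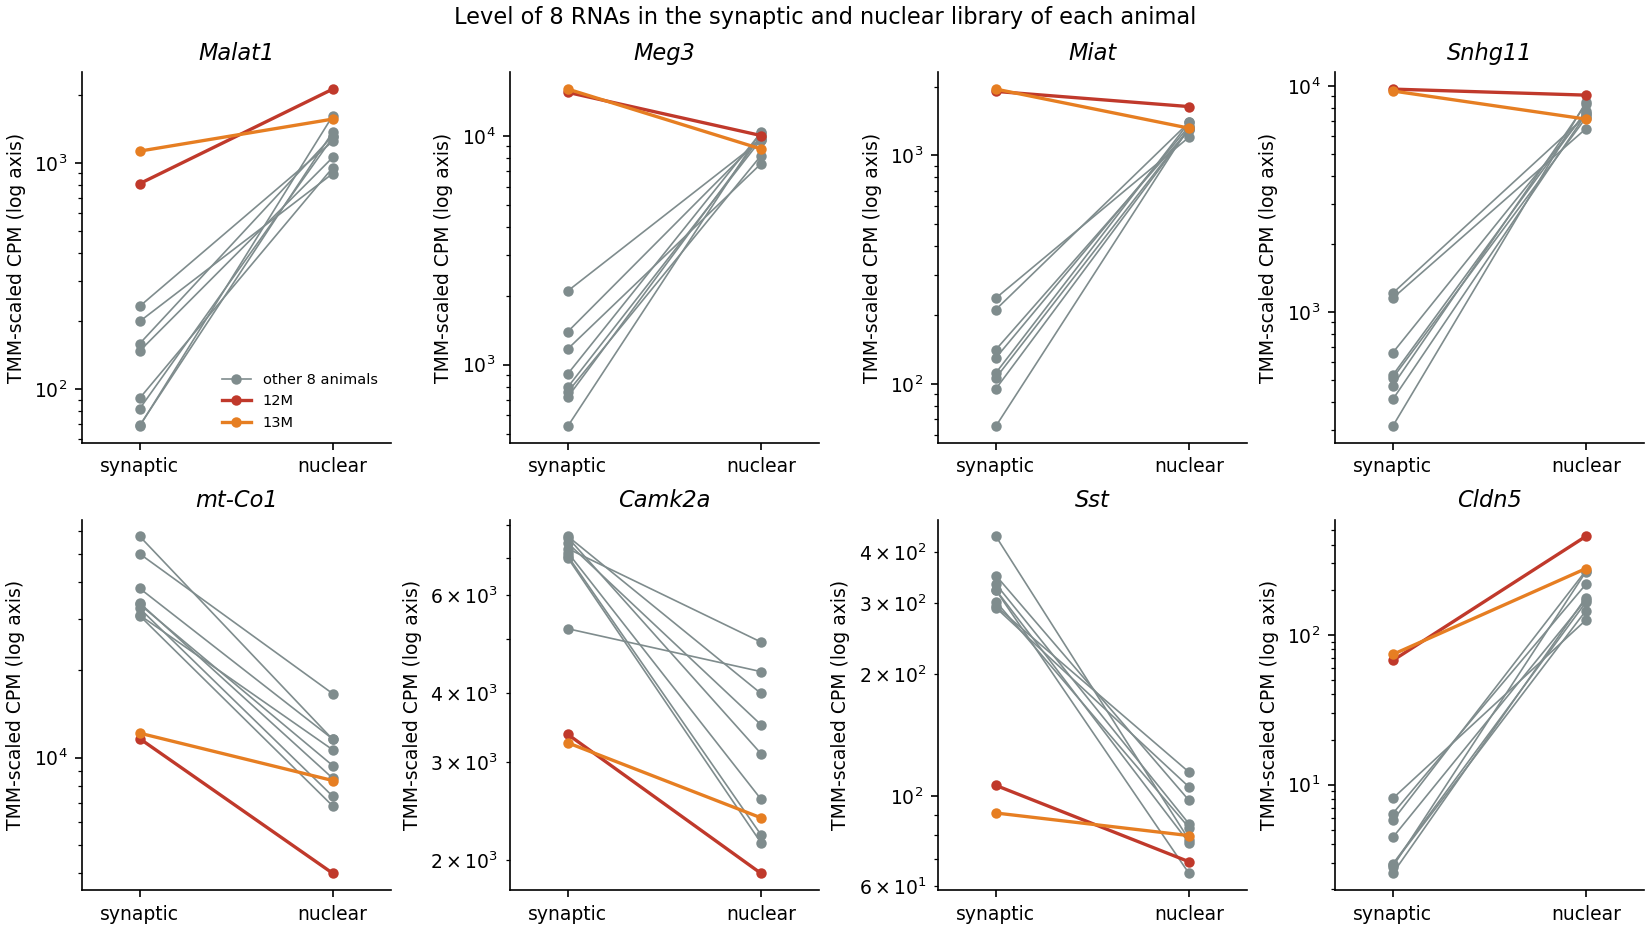
TMM-scaled CPM (log axis) of 8 RNAs in the synaptic and the nuclear library of each animal, joined by a line, with 12M and 13M coloured. For Meg3, Miat and Snhg11 the synaptic libraries of 12M and 13M lie at or above the nuclear ones, whereas for Cldn5 they lie between the other synaptic libraries (2.56 to 8.09 CPM) and the nuclear ones (125 to 454 CPM).

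The same direction held for most annotated classes of noncoding RNA. Among 809 lincRNA genes 55.7% were lower and 5.19% higher (median log2 fold change -1.17), and among 753 antisense genes 56.8% were lower (median -1.38). Genes inside introns on the sense strand (70 tested, 74.3% lower, median -2.07) and small nucleolar RNA genes (45 tested, 84.4% lower, median -2.68) were lower still. The libraries were made from poly(A) RNA. Whether the rows of small nucleolar RNA genes count the mature RNAs or RNA of their host genes was not tested. Of 12 small nucleolar RNA host genes 11 were lower, among them Snhg1 (-2.19, SE 0.27) and Snhg5 (-1.43, SE 0.18). Protein-coding genes had a median of 0.06, with 36.2% higher and 31.3% lower. Strand settings of the counting are not given in the sources used here, so antisense and intronic genes cannot be told apart from reads of the genes they overlap.

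Rows of annotated microRNA genes hold counts over the hairpin locus, and whether reads or read pairs were counted is not given. Mature microRNAs are too short for such libraries, so these rows do not measure them. Whether the counts came from unspliced RNA was not tested. Of 43 loci tested, 25 were lower and 1 higher in the synaptic fraction (median -2.15), and 27 lie in an intron of a host gene, 2 in an exon and 14 in no annotated host. The mature sequences of 6 of them, from RefSeq on GRCm38.p6, are shown 5′ to 3′ with the seed (bases 2 to 8) in capitals because they illustrate loci that followed their host gene, loci that did not, and a pair with a shared seed.
mmu-miR-186-5p: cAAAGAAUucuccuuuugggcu
mmu-miR-421-5p: cUCAUUAAauguuuguugaau
mmu-miR-1898: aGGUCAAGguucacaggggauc
mmu-miR-7a-5p: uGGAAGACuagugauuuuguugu
mmu-miR-132-3p: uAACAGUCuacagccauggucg
mmu-miR-212-3p: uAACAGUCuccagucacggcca

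Mir186 (chr3:157544279-157544349, plus strand) lies in an intron of Zranb2, a splicing-related gene, and both were lower in the synaptic fraction (-2.07, SE 0.65, for the locus and -1.12 for Zranb2). Mir421 (chrX:103572921-103572996, minus strand) lies in an intron of Ftx, and both were lower (-3.21, SE 0.76, and -3.40). Mir1898 (chr15:12171492-12171574, plus strand) was lower (-2.84, SE 0.69, adjusted p = 0.00302) although its host Zfr, an RNA-binding protein gene, was higher (0.76, adjusted p = 0.000750). Likewise Mir7-1 (chr13:58392779-58392886, minus strand) was lower (-3.49, SE 0.80) while its host Hnrnpk was higher (0.59, adjusted p = 0.00215). The level of the Mir1898 locus was 0 to 0.423 CPM in the 8 synaptic libraries other than 12M and 13M, against 1.03 to 3.01 CPM in nuclear libraries. Mir132 and Mir212, which share the seed AACAGUC and sit side by side on chromosome 11, did not pass the test over 10 pairs (-1.04, SE 0.45, adjusted p = 0.0577, and -0.87, SE 0.42, adjusted p = 0.0797) and passed without 12M and 13M (-1.16, adjusted p = 0.0403; -1.18, adjusted p = 0.0215).

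Genes for splicing and for zinc-finger proteins were mostly lower in the synaptic fraction, beside 35.1% of all genes. Of 55 splicing factors 40 were lower and 10 higher (median -0.72; 43 and 2 with total-count scaling). Srsf10, a splicing regulator, had 30.0 to 95.3 CPM in synaptic and 87.2 to 188 CPM in nuclear libraries (-1.36, SE 0.13). The kinases of splicing factors Clk1 (-2.62, SE 0.41) and Clk4 (-2.27, SE 0.36) were among the lowest. Prpf8, a core spliceosome protein, went the other way, with 161 to 365 CPM in synaptic and 85.1 to 153 CPM in nuclear libraries and no overlap (1.05, SE 0.09). Of 356 Zfp genes 215 were lower and 29 higher (median -0.59; 301 and 2 with total-count scaling), with Zfp933 (-1.41, SE 0.10) and Zfp383 (-1.50, SE 0.13) at the smallest p and Zfp365 at the largest rise (1.06, SE 0.19). Of 54 chromatin remodelling genes 17 were higher and 19 lower, shares near the 30.8% and 35.1% of all genes, and 3 and 37 with total-count scaling. Chd8, the remodeller mutated elsewhere in the series, had 45.7, 73.1 and 137 CPM in synaptic libraries and 79.7, 99.1 and 107 CPM in nuclear libraries (-0.35, SE 0.16, adjusted p = 0.0786), and was lower without 12M and 13M (-0.60, SE 0.09, adjusted p = 3.48e-05).

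RNA for energy metabolism was mostly higher in the synaptic fraction, by a margin that depended on the scaling for nuclear-encoded genes. All 13 mitochondrially encoded protein genes were higher (median 1.75), led by mt-Nd4l (2.49, SE 0.40) and mt-Nd5 (2.06, SE 0.18), both subunits of respiratory complex I. The catalytic subunit of cytochrome oxidase, mt-Co1, had 11611, 33075 and 57601 CPM in synaptic libraries and 3999, 8934 and 16579 CPM in nuclear libraries (1.75, SE 0.18, adjusted p = 1.75e-05). Its lowest synaptic values are those of 12M and 13M. It was the most abundant RNA per length in both fractions, at a mean of 21448 CPM per kb in synaptic and 6130 CPM per kb in nuclear libraries, and mt-Cytb and mt-Nd1 ranked after it in both.

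Of 80 nuclear-encoded genes of oxidative phosphorylation 71 were higher and 2 lower (median 0.79), beside 30.8% and 35.1% of all genes, but 29 and 5 with total-count scaling (median 0.29). Ndufa9 (1.09, SE 0.13) and Uqcrc2 (1.10, SE 0.14), a complex I and a complex III subunit, had the smallest p, and Ndufb2 was lower (-0.89, SE 0.12). Glycolysis genes were higher in 15 of 16 cases (median 1.08; 13 with total-count scaling), including Pfkm (1.10, SE 0.11) and the neuronal enolase Eno2 (1.05, SE 0.12). Of 18 subunits of the vacuolar ATPase, which acidifies synaptic vesicles, 14 were higher and 1 lower (median 0.97; 12 and 4 with total-count scaling). Atp6v1a had 190 to 605 CPM in synaptic and 131 to 199 CPM in nuclear libraries (1.35, SE 0.19), while Atp6v0e was lower (-1.16, SE 0.20).

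Translation and protein turnover genes were moderately higher. Of 33 elongation and initiation factors 30 were higher and none lower (median 0.54; total-count scaling left 5 higher and 1 lower). Of 85 cytosolic ribosomal protein genes 46 were higher and 3 lower, and 75 were higher without 12M and 13M; total-count scaling left 2 higher and 9 lower. Of 77 mitochondrial ribosomal protein genes 35 were higher and 7 lower (median 0.35), and 4 and 29 with total-count scaling (median -0.15). Of 20 tubulins and actins 15 were higher and none lower (median 0.91; 11 and 2 with total-count scaling). Proteasome subunits were higher in 25 and lower in 3 of 38 cases (5 and 12 with total-count scaling), the largest fall being that of the immunoproteasome subunit Psmb9 (-2.41, SE 0.28). Reads of ribosomal protein genes may be shared with their many processed copies.

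Genes of the synapse were higher in the synaptic fraction on both sides of the junction. Of 39 genes of presynaptic vesicles and release 37 were higher and 1 lower (median 1.05), and total-count scaling left 32 higher and 2 lower. Dnm1, the dynamin of vesicle retrieval, had 999, 1580 and 1981 CPM in synaptic libraries and 466.1, 628.1 and 936 CPM in nuclear libraries, with no overlap between the groups (1.27, SE 0.11, adjusted p = 8.81e-06). Such separation over all 20 libraries was seen for 5.89% of genes tested, and for 42.5% without 12M and 13M. Erc2, an active-zone scaffold, did not overlap either (1.04, SE 0.11). Unc13b, a vesicle priming factor, was the exception, with 39.1, 50.5 and 213 CPM in synaptic and 116, 138 and 177 CPM in nuclear libraries (-1.05, SE 0.27).

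Of 30 postsynaptic scaffold and glutamate receptor genes 25 were higher and none lower (median 0.71; 11 higher and 3 lower with total-count scaling). Camk2b (1.05, SE 0.10) and Iqsec2 (0.89, SE 0.10) had the smallest p. All 12 GABA-A receptor subunits tested were higher (median 1.08; 9 with total-count scaling), among them Gabra5 (1.25, SE 0.18) and Gabra3 (1.19, SE 0.19). Of 43 voltage-gated channel genes 35 were higher and none lower (median 0.69; 13 and 3 with total-count scaling), with Hcn2 (1.08, SE 0.12) and Kcnh3 (0.77, SE 0.09) at the smallest p. Of 53 clustered protocadherins, cell-surface adhesion proteins, 48 were higher (median 1.32; 36 higher and 1 lower with total-count scaling), including Pcdhga2 (1.76, SE 0.21) and Pcdhgc5 (1.79, SE 0.22). Their variable exons share a constant region, so reads of these genes may be shared or lost.

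The mRNAs known to be carried into dendrites were higher in 18 of 22 cases, and none was lower (median 0.84; 11 higher and 2 lower with total-count scaling). Camk2a, the classic dendritic mRNA, had 3253, 7096 and 7645 CPM in synaptic libraries and 1896, 2845 and 4938 CPM in nuclear libraries (1.02, SE 0.17, adjusted p = 0.000229), higher in 10 of 10 animals. Shank1, a scaffold of the postsynaptic density, had 957, 1087 and 1399 CPM in synaptic and 352, 549 and 759 CPM in nuclear libraries, without overlap (1.04, SE 0.13). Shank3 (1.07, SE 0.10), Grin1 (1.13, SE 0.11) and Limk1 (0.57, SE 0.10) did not overlap either.

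The largest of these differences was that of Dlgap3, a postsynaptic scaffold (1.35, SE 0.14), followed by Itpr1 (1.21, SE 0.15), Bdnf (1.15, SE 0.21), Nrgn (1.09, SE 0.19), Ddn (1.05, SE 0.18) and Ppp1r9b (0.99, SE 0.18). Dlg4 (0.85, SE 0.16), Psd (0.84, SE 0.17), Map2 (0.81, SE 0.16), Gria1 (0.73, SE 0.17) and Eef1a1 (0.58, SE 0.19) were higher by less. Shank2 (0.37, SE 0.10) also passed the test, but with total-count scaling its log2 fold change was -0.13. Arc (0.37, SE 0.23), Actb (0.32, SE 0.16), Fmr1 (0.05, SE 0.09) and Gria2 (-0.18, SE 0.19) did not pass. Arc, an activity-induced gene, spanned 48.5 to 1604 CPM in synaptic and 36.2 to 1328 CPM in nuclear libraries.

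Activity-induced genes as a list had 5 of 20 members higher and 5 lower, below the 30.8% and 35.1% of all genes each way, and 0 higher and 8 lower with total-count scaling. Klf4 was lowest, with 0.875, 1.38 and 8.77 CPM in synaptic and 13.04, 25.4 and 102 CPM in nuclear libraries and no overlap (-3.93, SE 0.47). Npas4, a neuronal transcription factor gene, was also lower (-1.23, SE 0.21).

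Markers of cell types did not move together. Endothelial and mural markers were lower in the synaptic fraction in 21 of 21 cases, with a median of -4.03, and in 20 of the 21 the groups did not overlap over all 20 libraries. Their summed level was 184 to 275 CPM in 8 synaptic libraries, 1045 and 1009 CPM in those of 12M and 13M, and 1689 to 3962 CPM in nuclear libraries. Cldn5, the tight-junction protein of brain vessels, had 2.56, 5.10 and 74.0 CPM in synaptic and 125, 197 and 454 CPM in nuclear libraries (-4.91, SE 0.48). Itm2a (-3.30, SE 0.24) and Vtn (-2.03, SE 0.13) had the smallest p. Both fractions of an animal are labelled as coming from the same cortex. How RNA of endothelial and mural cells was divided between the fractions was not tested. In such bulk libraries, less material of a cell type in a fraction and less RNA per cell cannot be told apart. Meningeal and collagen genes were lower in 11 of 15 cases (Foxc1 -2.51, SE 0.22; Bgn -1.75, SE 0.15), and 4 of 5 blood cell markers were lower (Hbb-bs -1.01, SE 0.13).

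Neuronal and glial markers were higher in most cases with TMM scaling, and in fewer with total-count scaling, beside 30.8% and 9.71% of all genes. Of 24 interneuron markers 18 were higher and 1 lower (median 1.07; 15 and 4 with total-count scaling). Sst, the somatostatin mRNA, had 90.9, 312.1 and 438 CPM in synaptic and 64.5, 81.8 and 115 CPM in nuclear libraries (1.63, SE 0.21), and Gad2, which makes GABA, did not overlap (1.44, SE 0.16). Adarb2 was lower (-0.61, SE 0.19). Of 20 excitatory neuron markers 15 were higher and 1 lower (6 and 3 with total-count scaling), with Slc17a7 (1.08, SE 0.15) and Sulf2 (1.04, SE 0.16) first, and the transcription factor gene Neurod2 was lower (-0.32, SE 0.11).

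Astrocyte markers were higher in 19 of 22 cases (median 0.91; 13 higher and 2 lower with total-count scaling), including Sparcl1 (1.20, SE 0.18) and Clu (1.12, SE 0.17). All 16 microglial markers were higher (median 0.83), of which 5 were called with total-count scaling, among them the complement genes C1qb (1.12, SE 0.16) and C1qa (1.01, SE 0.15). Oligodendrocyte markers were higher in 14 of 20 cases, among them Cnp (1.01, SE 0.15), and lower in 1, Aspa (-0.52, SE 0.13), and 4 were higher and 2 lower with total-count scaling. Precursor markers were higher in 6 of 10 cases and lower in 2. With total-count scaling 1 was higher and 4 were lower, beside 9.71% and 54.6% of all genes. Striatal markers, which a cortical dissection should hold little of, were higher in 6 of 11 cases (2 higher and 2 lower with total-count scaling), and their summed level in nuclear libraries was 652 and 626.9 CPM in 12M and 13M and 152 to 347.9 CPM in the other 8. Of 9 choroid plexus and ependymal markers 1 was higher, Ttr (1.77, SE 0.22), at 0.904 to 6.93 CPM in synaptic libraries and 0.351 to 3.09 CPM in nuclear libraries, and 3 were lower. These shares, 11.1% and 33.3%, stand beside 30.8% and 35.1% of all genes.

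The 10 largest falls among named genes above a mean log2 CPM of 1 ran from Gkn3 (-5.48, SE 0.55) through Bmx, Foxl2, Ctla2a, Mecom, Cyyr1, Mall, Myct1 and Icam2 to She (-5.01, SE 0.62). Gkn3, a gene of arterial endothelium in mouse brain, had 0, 0.267 and 2.66 CPM in synaptic and 8.31, 16.5 and 31.6 CPM in nuclear libraries. Bmx, Mecom, Myct1 and Icam2 are also known from endothelium. The 10 largest rises were Dok6 (2.68, SE 0.38), mt-Nd4l, Plcxd3 (2.23, SE 0.35), Gabrb2 (2.14, SE 0.37), mt-Nd5, Slc9a7 (2.01, SE 0.36), Trpc5 (1.98, SE 0.39), mt-Co3, mt-Atp6 and Pcdha5 (1.90, SE 0.31). Dok6, an adaptor of receptor tyrosine kinases, had 6.60, 12.3 and 22.4 CPM in synaptic and 0.129, 2.34 and 7.02 CPM in nuclear libraries.

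Among protein-coding genes, length and the synaptic to nuclear ratio were weakly related, and the relation differed between animals. The fifth of genes with the longest span in the genome had 46.4% of members higher and 25.7% lower, and the fifth with the longest 3′ UTR had 43.3% higher and 29.5% lower, beside 36.2% and 31.3% over all protein-coding genes. Spearman's rho between coding length and the paired log2 ratio, across 12983 genes within an animal and given as a description, was -0.18 to -0.07 in 1F, 2F, 3F, 24M, 25M and 29M, -0.33 and -0.34 in 4F and 5F, and 0.34 and 0.48 in 12M and 13M. For span in the genome, rho was -0.16 and -0.21 in 4F and 5F and 0.21 and 0.28 in 12M and 13M. In the other animals rho for span was 0.02 to 0.17.

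Gene groups differed between animals as well. In 4F and 5F the median log2 ratio of the voltage-gated channels was 0.03 and -0.0011, against 0.69 to 1.40 in the 6 animals 1F, 2F, 3F, 24M, 25M and 29M. Clustered protocadherins had medians of 0.26 and 0.18 in 4F and 5F, against 1.31 to 1.87. Cytosolic ribosomal protein genes went the other way, at 1.36 and 1.03 against -0.10 to 0.92. Gabrb2 had 69.2 and 69.8 CPM in the synaptic libraries of 4F and 5F and 69.3 and 80.5 CPM in their nuclear libraries, so its rise was not seen there (-0.10, adjusted p = 0.613), while it was 2.46 within 1F, 2F and 3F and 3.09 within 24M, 25M and 29M. Slc9a7, Trpc5, Pcdha5 and Plcxd3 likewise did not pass within 4F and 5F, whereas all of the 10 largest falls did. The part of RNA length in these differences was not tested, and with 2 animals the batch label and the animals cannot be told apart.

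**Figure D4:**
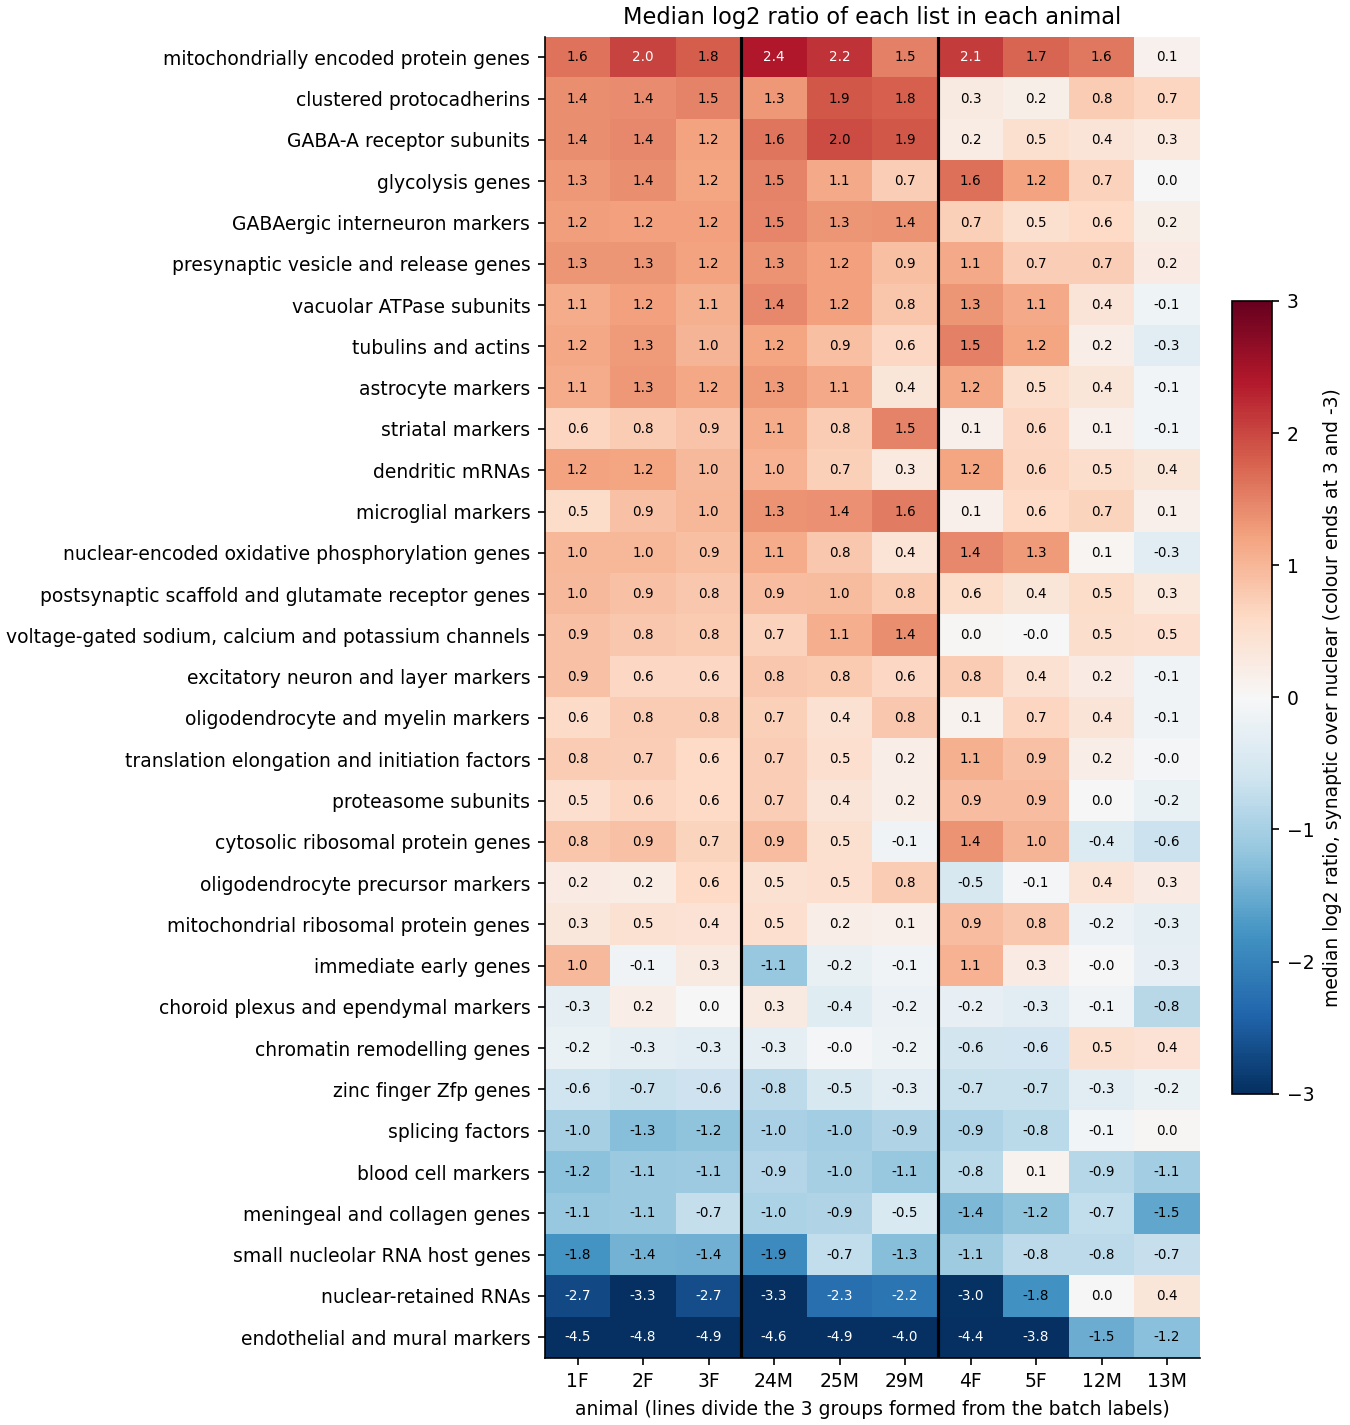
Median log2 ratio of synaptic over nuclear for each gene list (rows) in each animal (columns, in the 3 groups formed from the batch labels), written in each cell. Endothelial markers run from -4.92 to -3.84 in 8 animals but are -1.50 and -1.24 in 12M and 13M, and channels and protocadherins are near 0 in 4F and 5F.

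In 1F, 2F and 3F, 6479 genes were higher and 7780 lower, and in 4F and 5F 4919 and 5899, each within 1 batch label. In 24M, 25M and 29M, which span 3 labels, 4801 and 5516 were called. With 12M and 13M added, 4F and 5F gave no call by edgeR, with 4116 genes at an unadjusted p under 0.05. No gene passed the test of a difference between the sexes in the synaptic to nuclear ratio (0 of 18879, edgeR, with 3619 at an unadjusted p under 0.05). Without 12M and 13M 0 were called and 2948 had an unadjusted p under 0.05. These fits count 29M as male, although its nuclear library carries female markers. With 29M left out as well, 0 were called, with 1785 at an unadjusted p under 0.05. This does not show that the sexes act alike, and sex goes partly with batch.

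The same comparison in the 4 conditional-line WT animals called 5966 of 18715 genes higher (31.9%) and 6558 lower (35%), together 66.9%; 9.21% were higher and 22.9% lower by at least 2-fold. Of the 5717 genes called higher in germline WT and tested there, 4811 were called higher (84.2%) and 4 lower. Of the 6394 called lower in germline WT, 5297 were called lower (82.8%) and 22 higher. Endothelial markers were again lower in 21 of 21 cases (median -3.37) and the 13 mitochondrially encoded genes higher (median 1.41). Meg3 (-3.02), Malat1 (-3.47) and Snhg11 (-3.29) were lower and Peg13 was higher (1.35). Cytosolic ribosomal protein genes differed between the groups of animals, with 11 of 83 higher and 13 lower in the conditional line; this difference was not tested. Xist went in opposite directions: its female libraries of the conditional line had 142 and 182 CPM in the synaptic and 20.1 and 71.9 CPM in the nuclear fraction, unscaled, and its log2 fold change was 2.55 over those 4 pairs, against -1.76 in the 5 germline females; the difference was not tested.

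**Figure D5:**
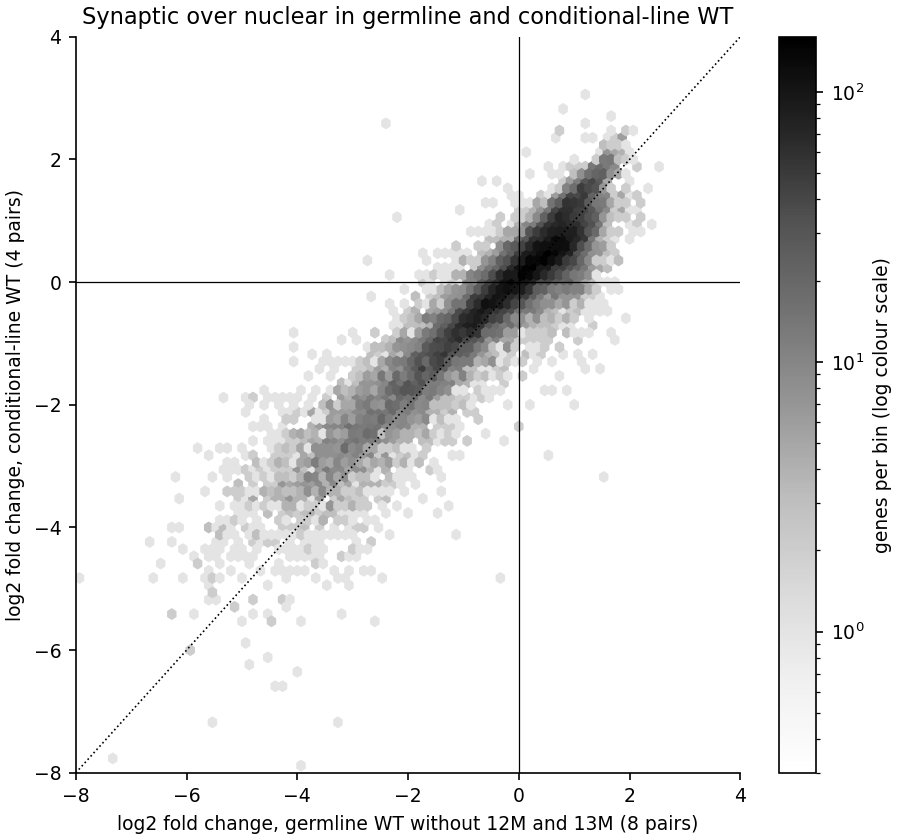
Log2 fold change of synaptic over nuclear in conditional-line WT (y axis, 4 pairs) against germline WT without 12M and 13M (x axis, 8 pairs), with darker bins holding more genes. Most genes lie along the diagonal; 4 of 17795 fall outside the axes.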

How the data were processed

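The deposited values are whole-number counts for each gene, not normalized. The submitters' processing notes name STAR 2.5.4b, the build GRCm38 and featureCounts 2.0.0. The strand and read-pair settings are not given in the sources used here, and even counts made up 60.9 to 74.3% of counts from 10 to 200 in a library. Without 12M and 13M this share was 69.1 to 71.4% in synaptic and 60.9 to 73.0% in nuclear libraries. In 12M and 13M it was 62.0% and 62.7% in synaptic and 74.3% and 63.9% in nuclear libraries. The share thus differed partly by fraction, and its effect on the comparison was not tested. The germline table and the conditional-line table were each fitted alone. Of 54838 gene rows 54723 matched a symbol in GENCODE M21. The members and gene lists were chosen with earlier results of these data known.

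Genes with low counts were removed by edgeR's filterByExpr, libraries were scaled by TMM, and counts were tested with edgeR 4.0.16 (R 4.3.3) by quasi-likelihood with animal as block and Benjamini-Hochberg adjustment over all genes tested. Fold changes are synaptic over nuclear, and levels are CPM after TMM scaling. Values of a library as a whole were compared by an exact two-sided sign-flip permutation test. DESeq2 1.42.0 and limma 3.58.1 were alternatives. Genes without a symbol stayed in the fits. On simulated counts of the 10 pairs (18365 genes), 100 genes were changed by a log2 of 1 and 100 by 0.5. Of these, 67% and 8% were recovered, and 3.85% of calls were false. In the data 65.9% of genes were called, a far larger share than was changed in the simulation. The simulation therefore did not test the scaling under so many changes, and its rates cannot be carried over to the data.

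Genes were named by a rule: the 10 largest changes each way (adjusted p under 0.05, mean log2 CPM of at least 1, ordinary symbol), all members of the nuclear-retained, dendritic and mitochondrially encoded lists, in other lists the 2 smallest p and the largest change against the list, the most abundant genes per length, the most variable genes, and Chd8. A member of the dendritic list is counted with its list but is not reported here. Clk1, Clk4, Cldn5, Zranb2, Zfr, Hnrnpk, Ddx3y and the microRNA loci were chosen after their values were seen. The animal number names the block in the labels. Deviations of same-numbered libraries from the fraction means correlated at -0.16 to 0.27 over genes, against means of -0.034 to 0.016 with other animals. Over the 10 pairs only 12M had its own number as best match. Without 12M and 13M only 2F, 3F and 24M did, so the pairing rests on the labels.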

Additional observations from a re-analysis of the deposited data

Results flagged for a closer look

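Some values of single libraries lay far from the others of their group of 10 or 5, by Dixon's test at the 95% level. Of 66 groups examined 11 were so marked; chance alone marks about 1 in 20.

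In male nuclear libraries, 29M had 492 CPM of Xist, against 0.0438 to 0.675 CPM in the others, and 0 CPM of Ddx3y, against 57.3 to 79.0 CPM. Its synaptic library had 3.38 CPM of Xist, against 0 to 0.695 CPM in the other male synaptic libraries.

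Animal 12M stood out in nuclear Miat (1634 CPM, others 1200 to 1394), nuclear Cldn5 (454 CPM, others 125 to 277) and synaptic Gkn3 (2.66 CPM, others 0 to 1.15). Animal 25M stood out in nuclear Klf4 (102 CPM, others 13.04 to 37.2), synaptic Arc (1604 CPM, others 48.5 to 853) and nuclear Arc (1328 CPM, others 36.2 to 607). Animal 5F stood out in nuclear Map2 (1208 CPM, others 539 to 847) and nuclear Dok6 (7.02 CPM, others 0.129 to 3.32).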

How the results depend on the processing

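Total-count scaling gave 1833 genes higher and 10307 lower (122 and 6510 at 2-fold or more). Males alone gave 859 and 1162 (451 and 922), a group that holds 12M and 13M, and the 4 animals 4F, 5F, 12M and 13M gave 0 and 0 (0 and 0). At 2-fold or more, the genes higher numbered 2022 without 12M and 13M, 2186 without 12M, 13M and 29M, 2196 by limma voom with sample weights, 2341 in 1F, 2F and 3F, 2082 in 24M, 25M and 29M, 2055 in 4F and 5F and 2201 in females; the test against a log2 fold change of 1 gave 104 higher and 1755 lower. The cause of these shifts was not tested, other than by leaving animals out.

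Leaving out each animal in turn gave 5224 to 6138 genes higher and 5874 to 7035 lower (1038 to 1657 and 3772 to 4616 at 2-fold or more). The difference in mitochondrially encoded share was 4.33 to 5.39 percentage points, in genes with a count -3695 to -2796, and in total counts -1.52 to 2.45 M. In the conditional line, leaving out an animal gave 4478 to 4935 genes called higher as in germline WT and 4797 to 5184 called lower.

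Signs changed with total-count scaling for Fmr1 (-0.45) and Shank2 (-0.13), and within 4F and 5F for Gabrb2 (-0.10), Neurod2 (0.065), Slc9a7 (-0.22) and Trpc5 (-0.19). Of 144 named genes, 143 kept their direction and side of the threshold with DESeq2 and 144 with RLE scaling. Without 12M and 13M, 139 of the 143 tested did, and 4 passed the threshold only then. Many of these genes were named for a large change or small p in the first fit, so such agreement is partly built in. Over all 18879 genes DESeq2 called 6161 higher and 7141 lower, and RLE scaling 5820 and 6619. The fit with no replicate block, with sex in place of animal, called 6142 genes higher and 6225 lower.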

Other observations

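The synaptic libraries of 12M and 13M did not simply match nuclear libraries. Summed over 18 nuclear-retained RNAs they held 30822 and 31612 CPM, above the 19975 to 26210 CPM of all 10 nuclear libraries, and summed over 55 splicing factors they held 18244 and 17974 CPM, above the 11556 to 16116 CPM of nuclear libraries. Endothelial and mural markers, at 1045 and 1009 CPM, were below every nuclear library. Presynaptic genes, at 16088 and 14421 CPM, were above (12M) and within (13M) the nuclear range of 9401 to 15902 CPM and below the 27720 to 37711 CPM of the other 8 synaptic libraries.

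F5, the gene of a coagulation factor, was lower in the synaptic fraction of germline WT without 12M and 13M (-2.25) and higher in the conditional line (1.09); it was chosen after its values were seen.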
